A study of Arabidopsis thaliana with 18 samples.

Results

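BRIP1 and BRIP2 binding was examined at 9 leaf polarity genes of *Arabidopsis thaliana*, chosen by locus: the KANADI genes *KAN1* (AT5G16560), *KAN2* (AT1G32240) and *KAN3* (AT4G17695), the YABBY genes *YAB1* (AT2G45190, also called *FIL* or *AFO*), *YAB2* (AT1G08465), *YAB3* (AT4G00180) and *YAB5* (AT2G26580), and *AS1* (AT2G37630) and *AS2* (AT1G65620). They are 9 of 27444 nuclear protein-coding genes and were chosen with earlier results of these data known. A peak was counted for a gene when its summit, the base of highest signal, lay between 3000 bp upstream of the transcription start site (TSS) and 1000 bp past the 3′ end. Of the 9 genes, 7 had such a peak in at least 1 of 4 libraries, against 39.6% of all protein-coding genes, and *KAN1* alone (1 of 9) had one in all 4, against 14.9%, so the count for all 4 libraries was near that of genes in general.

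The 4 libraries were chromatin immunoprecipitations followed by sequencing (ChIP-seq) of BRIP1-GFP in *brm-1* (replicates 1 and 2) and BRIP2-GFP in *brm-1* (replicates 1 and 2), made from 14-day-old seedlings with an antibody to GFP. BRIP1 and BRIP2 are homologous subunits of plant SWI/SNF complexes, which use ATP to move or evict nucleosomes. BRAHMA (BRM) is the ATPase of these complexes, and *brm-1* is a loss-of-function allele of its gene, so both groups lacked normal BRM. A further 14 of the 18 samples were not analysed here, among them the fusions without *brm-1*, so no value below measures an effect of *brm-1*. The promoter driving the fusions and the control library behind each peak list are not given in the sources used here, and no anti-GFP library from plants without a fusion was analysed here. The titles name all 4 libraries as immunoprecipitations, but the antibody field of BRIP1 replicate 2 reads none, and that of the BRIP2-GFP in *brm-1* input names the GFP antibody. Whether that input served as the control behind the BRIP2 folds is not stated, and the part of these label conflicts in the folds was not tested. Whole seedlings mix young leaf primordia with all other tissues, so binding in fewer cells and weaker binding per cell cannot be told apart.

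A leaf grows flat because its upper (adaxial) and lower (abaxial) sides take on different identities. KANADI proteins are GARP-family transcription factors that promote abaxial identity and act mainly as repressors. YABBY proteins carry a zinc finger and an HMG-like domain, are expressed on the abaxial side of young leaves and promote growth of the blade. AS1, a MYB protein, and AS2, a LOB-domain protein, form a complex that keeps class I KNOX meristem genes off in leaves and acts on the adaxial side.

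The lists held 3637, 5343, 7877 and 6288 nuclear peaks in BRIP1 replicate 1, BRIP1 replicate 2, BRIP2 replicate 1 and BRIP2 replicate 2. Fold is the authors' ratio of the ChIP signal to the local control at the summit, and its median over all peaks lay between 2.44 and 2.64. The number of fragments over a summit (the pileup) and the control could be solved from each peak's fold and p-value. The control of most peaks equalled 1 background value per library, 31.5 fragments in BRIP1 replicate 1, 41.2 in BRIP1 replicate 2, 29.7 in BRIP2 replicate 1 and 23.2 in BRIP2 replicate 2. At that background the weakest peak called had 54, 66, 49 and 41 fragments in the same order, or a fold of 1.59 to 1.73, so that weaker binding was not detectable at this depth. Intervals of pileups below are exact Poisson intervals (95%) and cover counting error only. The titles mark the replicates as bio1 and bio2, that is as biological replicates, without saying what was replicated.

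Across the 9 genes there were 24 peaks in 11 sites, a site being a group of peaks joined by overlap of at least 1 bp between libraries. One site held a peak of all 4 libraries, 3 sites held a peak of 3 libraries, 3 of 2 libraries and 4 of a single library. Of all 8727 regions formed in this way on the nuclear chromosomes, 2982 held a peak of all 4 libraries. A further 1154 lacked a peak of BRIP1 replicate 1 alone, 120 of BRIP1 replicate 2 alone, 20 of BRIP2 replicate 1 alone and 160 of BRIP2 replicate 2 alone. At the 11 sites the folds ran from 1.89 to 3.73, with a median of 2.72, and the pileups from 57 to 155 fragments. The control at all 24 summits was within 1.04 times the background of its library. Of the 24 summits, 17 lay upstream of the TSS of the gene they were counted for, and 16 were intergenic, 3 in introns, 3 in exons of a non-coding gene and 2 in a 5′ UTR. The nearest TSS was that of the polarity gene for 23 of them.

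**Figure D1:**
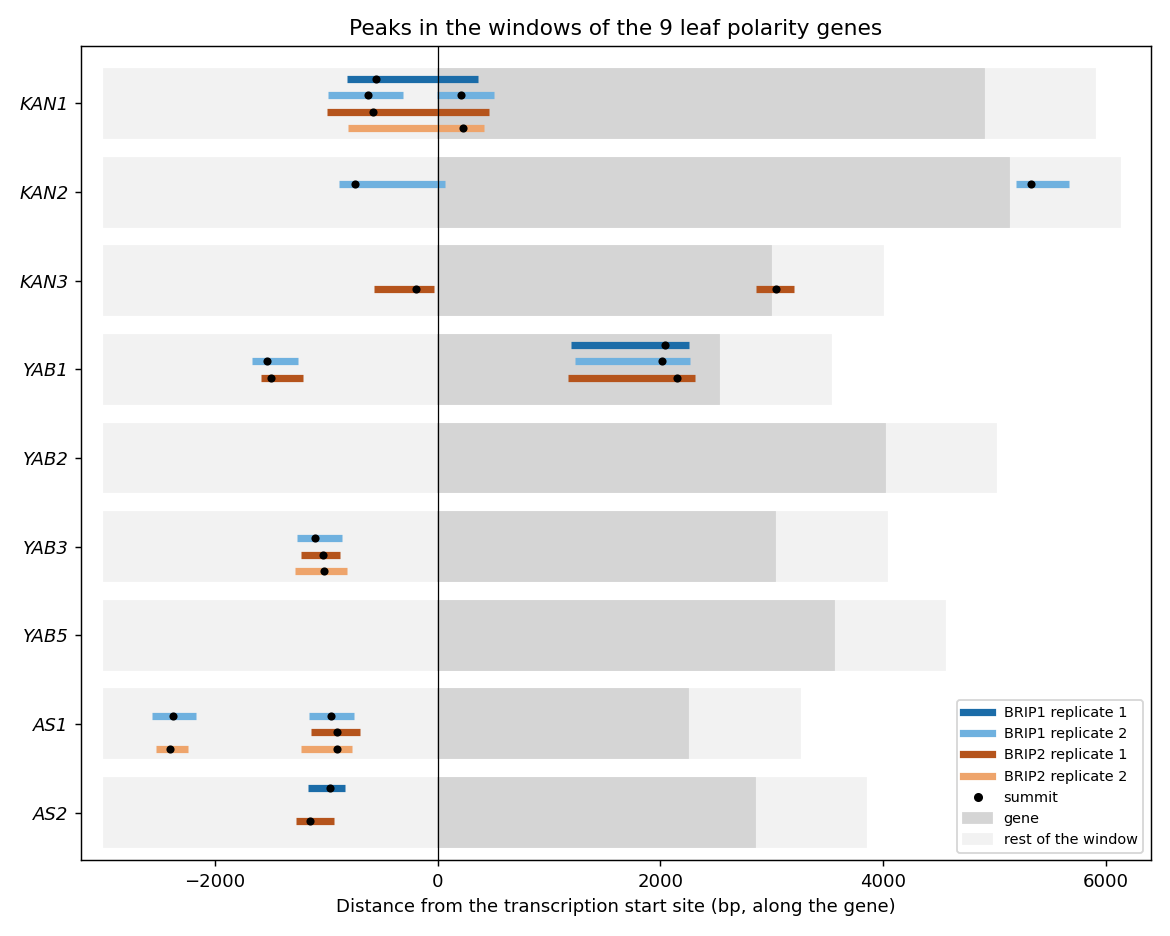
Peaks (coloured bars) and summits (black dots) in the windows of the 9 genes, drawn by distance from the TSS in bp along the gene, with 1 line per library (BRIP1 replicates above BRIP2 replicates), dark grey for the gene and light grey for the rest of the window. Summits gathered upstream of *KAN1*, *YAB3* and *AS1* and inside *YAB1*, and the windows of *YAB2* and *YAB5* were empty.

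The sequence around the strongest summit of each of the 4 sites found in 3 or more libraries is given on the minus strand, on which all 4 genes lie, from the RefSeq TAIR10.1 genome. Each runs 50 bp to either side of the summit. The *KAN1* site was shown because all 4 libraries held it. The other 3 were chosen after their values were seen. Capitals mark every match, on either strand, to 8 motifs: the G-box (CACGTG), the telobox (AAACCCTA), the GAGA repeat (GAGAGAGA), the CCAAT box (CCAAT), the TCP class I (GTGGGNCC) and class II (GTGGNCCC) motifs, the auxin response element (TGTCTC) and the KANADI core (GAATA).
KAN1 (chr5:5412298-5412398, intergenic, summit 582 bp upstream of the TSS in BRIP2 replicate 1): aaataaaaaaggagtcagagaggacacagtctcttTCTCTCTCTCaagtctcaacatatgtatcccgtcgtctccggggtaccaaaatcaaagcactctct
YAB1 (chr2:18628687-18628787, intron and coding exon, summit 2042 bp past the TSS in BRIP1 replicate 1): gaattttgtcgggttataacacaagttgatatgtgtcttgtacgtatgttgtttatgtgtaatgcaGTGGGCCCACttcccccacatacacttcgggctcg
AS1 (chr2:15784339-15784439, intergenic, summit 909 bp upstream of the TSS in BRIP2 replicate 2): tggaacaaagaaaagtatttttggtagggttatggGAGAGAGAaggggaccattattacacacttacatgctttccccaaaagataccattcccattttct
YAB3 (chr4:76552-76652, exon of a non-coding gene, summit 1026 bp upstream of the TSS in BRIP2 replicate 1): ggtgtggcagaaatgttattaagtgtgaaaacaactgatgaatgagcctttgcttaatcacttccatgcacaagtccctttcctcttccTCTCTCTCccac

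The windows of *KAN1*, *AS1* and *YAB3* held a GAGA repeat, the kind of sequence bound by BPC proteins, with 2 overlapping matches at *KAN1*. Of all 11 sites, these 3 held it. The repeat stood in 5.33% of 2982 regions shared by the 4 libraries (windows of the same length) and in 8.49% of 27444 promoter windows reaching from 250 bp before to 50 bp after a TSS. The *YAB1* window held 1 palindrome that matched both TCP motifs on both strands, at the border of an intron and a coding exon. TCP proteins are growth regulators of leaves. The class I motif was found in 2.62% of the shared regions and 1.33% of the promoter windows, and the class II motif in 2.58% and 0.787%.

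The KANADI core, a 5-base word, was found in 4 of the 11 sites (past the end of *KAN2*, upstream and past the end of *KAN3*, and upstream of *AS2*), against 21.5% of the shared regions and 57.0% of the longer promoter windows. The G-box was found in 1 site (past the end of *KAN3*; 11.7% of shared regions and 7.70% of promoters) and the CCAAT box in 1 (upstream of *AS2*; 23.1% and 51.7%). No telobox (0.838% and 6.26%) or auxin response element (9.49% and 14.3%) stood in any of the 11 windows. In all, 8 of the 11 windows held at least 1 of the 8 motifs. The share of shared regions or promoters with any of the 8 was not computed, so this count has no comparison. A match is a description of the sequence and was not tested as a binding site.

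*KAN1* (chr5:5406863-5411766, minus strand), the main abaxial regulator of its family, was the 1 member with a summit in every library. Its fold was 2.40 in BRIP1 replicate 1 and 2.82 in BRIP1 replicate 2, against 3.29 in BRIP2 replicate 1 and 3.05 in BRIP2 replicate 2. The 2 groups did not overlap, with the BRIP1 libraries lower, as in 60.7% of the 2982 regions that all 4 libraries shared, and they overlapped once each library was centred on its median. BRIP1 averaged 2.61 ± 0.30 here, against an average of 3.17 ± 0.17 for BRIP2 (SD over 2 libraries each).

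The *KAN1* peaks joined into a region of 1498 bp that covered the TSS. Summits fell at 2 places within it. Those 553, 628 and 582 bp upstream of the TSS (BRIP1 replicate 1, BRIP1 replicate 2 and BRIP2 replicate 1) were intergenic. Those 209 and 230 bp past the TSS (BRIP1 replicate 2 and BRIP2 replicate 2) lay in the 5′ UTR of *KAN1*, in exon 1 of 6, where the gene overlaps AT5G02555, a long non-coding RNA on the other strand. BRIP1 replicate 2 had a separate peak at each place, of almost equal fold (2.82 past the TSS and 2.80 upstream), so the place of the summit varied within each protein's replicates. The highest folds, used for the means and tests, thus came from both places. They lay 553 bp upstream and 209 bp past the TSS for BRIP1, against 582 bp upstream and 230 bp past it for BRIP2.

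The *KAN1* pileup was 77 fragments (60.8 to 96.2) in BRIP1 replicate 1 and 118 (97.7 to 141) in BRIP1 replicate 2, against 100 (81.4 to 122) in BRIP2 replicate 1 and 73 (57.2 to 91.8) in BRIP2 replicate 2. Pileup depends on depth, and its order among the libraries differed from that of the fold. Within the lists the *KAN1* peaks stood away from the top: 61.1% of the peaks of BRIP1 replicate 1 and 30.8% of those of BRIP1 replicate 2 had a fold at or above it, against 21.3% in BRIP2 replicate 1 and 29.8% in BRIP2 replicate 2.

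BRIP1 and BRIP2 were compared with limma on the log2 fold over all 2982 shared regions, with Benjamini-Hochberg adjustment. At *KAN1* the log2 difference, BRIP1 minus BRIP2, was -0.28 (SE 0.14, 95% interval -0.57 to -0.0027), with a p of 0.0478 and an adjusted p of 0.124, which did not pass the threshold of 0.05. The SE, interval and p rest on a spread that limma pools over the regions. They do not measure the spread of the *KAN1* replicates alone. The same fit called 24.2% of all regions, 11 with a higher and 710 with a lower fold in BRIP1, and the median difference over all regions was -0.22. Relative to the median of each library, the *KAN1* difference was -0.05 (adjusted p = 0.875), and 24 regions had a higher and 9 a lower fold in BRIP1. An exact permutation test (two-sided) of the *KAN1* values alone gave p = 0.333, the smallest that 2 libraries against 2 allow.

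**Figure D2:**
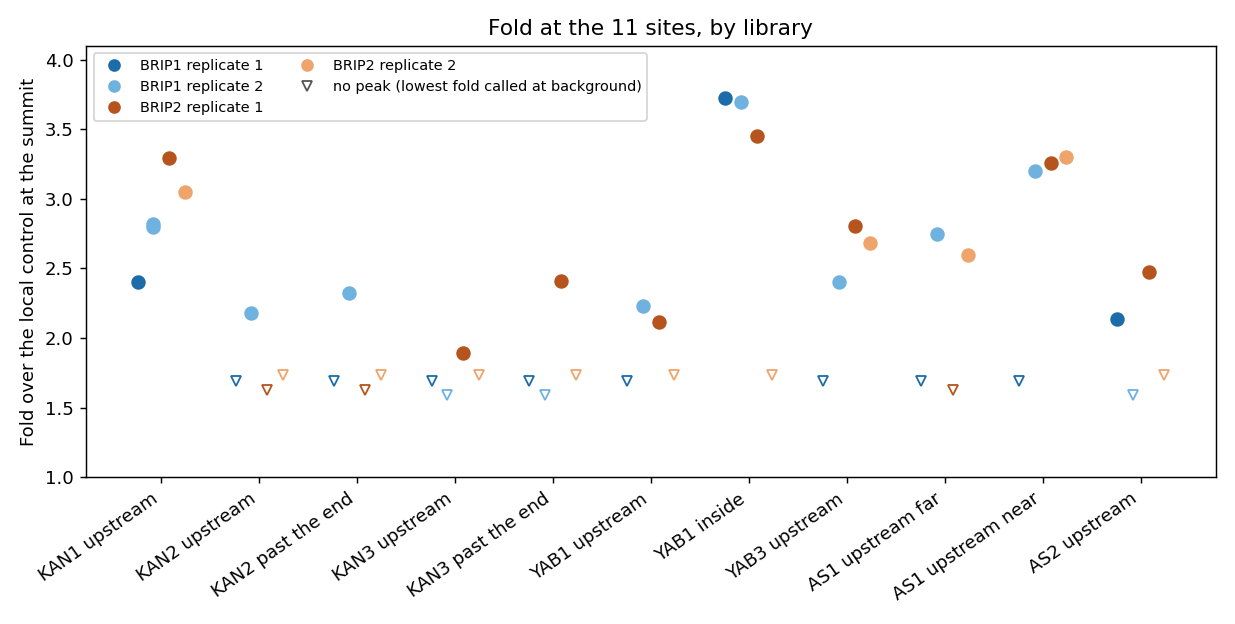
Fold over the local control (y axis) at the 11 sites (x axis) in each library, BRIP1 left of BRIP2. Filled circles are peaks and open triangles stand where a library had no peak, at the lowest fold it called at background. The 2 highest folds, 3.73 and 3.70, were those of both BRIP1 replicates inside *YAB1*, where BRIP2 replicate 2 had no peak.

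*KAN2* and *KAN3*, which act redundantly with *KAN1*, each had peaks in a single library. *KAN2* (chr1:11625616-11630745, minus strand) had a summit 744 bp upstream of the TSS with a fold of 2.18 and 91 fragments (73.3 to 112), and another 195 bp past the 3′ end with a fold of 2.32 and 97 fragments (78.7 to 118), both in BRIP1 replicate 2. The nearest summits of the other libraries lay 3581 bp past the 3′ end in BRIP1 replicate 1, against 2628 bp in BRIP2 replicate 1 and 3800 bp in BRIP2 replicate 2, outside the window. Those summits had a fold of 3.05 in BRIP1 replicate 1, against 2.41 in BRIP2 replicate 1 and 2.15 in BRIP2 replicate 2. The nearest TSS of each was that of *KAN2*. The *KAN2* peaks inside the window were thus not found again in the other BRIP1 replicate or in either BRIP2 replicate.

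*KAN3* (chr4:9847933-9850927, minus strand) had its 2 peaks in BRIP2 replicate 1. The summit 193 bp upstream of the TSS had a fold of 1.89 and 57 fragments (43.2 to 73.9), the lowest of the 24 peaks, and 92.7% of that library's peaks were at or above it. The summit 39 bp past the 3′ end had a fold of 2.41 and 73 fragments. It is the 1 summit whose nearest TSS belonged to another gene, AT4G17690, which RefSeq annotates as a peroxidase. In the other 3 libraries the nearest summit was 11221 to 11236 bp past the end of *KAN3*.

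*YAB1* (chr2:18628252-18630779, minus strand), which promotes abaxial identity and blade growth together with *YAB3*, had the highest folds of the 9 genes, and they lay inside the gene. The fold was 3.73 in BRIP1 replicate 1 and 3.70 in BRIP1 replicate 2, against 3.45 in BRIP2 replicate 1 and no peak in BRIP2 replicate 2. Summits were 2042 and 2012 bp past the TSS in the BRIP1 replicates, both in the fifth intron, and 2148 bp past it in BRIP2 replicate 1, in the sixth intron. The BRIP1 replicates differed little, with a mean of 3.71 ± 0.018 (SD, n = 2), while the BRIP2 replicates differed by presence and absence of the peak.

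The pileup at this site was 120 fragments (99.5 to 143) in BRIP1 replicate 1 and 155 (132 to 181) in BRIP1 replicate 2, against 105 (85.9 to 127) in BRIP2 replicate 1, the 155 being the highest of the 24 pileups. Peaks at or above its fold made up 9.93% and 9.98% of the lists of BRIP1 replicates 1 and 2, and 17.8% of the list of BRIP2 replicate 1. At the background of BRIP2 replicate 2, a fold of 3.45 would be 82.7 fragments, above the 41 of the weakest peak that library called. The nearest summit of BRIP2 replicate 2 was 1055 bp past the 3′ end of *YAB1*, with a fold of 2.31, and closer to the TSS of AT2G45180, annotated as a lipid-transfer-family protein.

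Few regions of that strength lacked a peak in 1 library. Of 449 regions in which BRIP1 replicates 1 and 2 and BRIP2 replicate 1 all had a fold of at least that of *YAB1* in BRIP2 replicate 1, the *YAB1* region was the 1 with no peak in BRIP2 replicate 2. With the same limit in the 3 other libraries, 2 of 601 regions had no peak in BRIP1 replicate 1, 0 of 449 in BRIP1 replicate 2 and 0 of 424 in BRIP2 replicate 1. The limit at the fold of *YAB1* was chosen after its values were seen, so the *YAB1* region was in the set by construction. The cause of the missing peak was not tested.

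A second *YAB1* site lay upstream, with a fold of 2.23 at 1530 bp in BRIP1 replicate 2 and of 2.12 at 1493 bp in BRIP2 replicate 1. It was held by 1 replicate of each protein, with 93 fragments (75.1 to 114) in BRIP1 replicate 2 and 64 (49.3 to 81.7) in BRIP2 replicate 1.

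*YAB3* (chr4:72545-75576, minus strand) had a peak about 1 kb upstream of its TSS in 3 libraries. The fold was 2.41 in BRIP1 replicate 2, with none in BRIP1 replicate 1, against 2.80 and 2.68 in BRIP2 replicates 1 and 2, a BRIP2 mean of 2.74 ± 0.085 (SD, n = 2). Summits stood 1105, 1026 and 1018 bp upstream, in the single exon of AT4G03525, a long non-coding RNA on the plus strand. Pileups were 104 fragments (85.0 to 126) in BRIP1 replicate 2, against 85 (67.9 to 105) and 64 (49.3 to 81.7) in BRIP2 replicates 1 and 2. The nearest summit of BRIP1 replicate 1 was 9560 bp upstream.

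*YAB2* (chr1:2675813-2679824, plus strand) and *YAB5* (chr2:11303455-11307010, minus strand), the other YABBY genes of vegetative tissue, had no summit in any library. All 4 libraries nevertheless had a summit just beyond the window of *YAB2*, 1359 and 1315 bp past the 3′ end in BRIP1 replicates 1 and 2, against 1268 and 1244 bp in BRIP2 replicates 1 and 2. Their folds were 2.28 and 2.73 in the BRIP1 replicates, against 2.44 and 2.52 in the BRIP2 replicates, and the nearest TSS was that of *SSL3*, a strictosidine synthase-like gene. At *YAB5* the nearest summits were 18602 and 7084 bp past the 3′ end in BRIP1 replicates 1 and 2, against 7024 and 7060 bp in BRIP2 replicates 1 and 2.

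*AS1* (chr2:15781232-15783480, minus strand) had similar folds in 3 libraries. Its nearer upstream site had a fold of 3.20 in BRIP1 replicate 2, with none in BRIP1 replicate 1, against 3.26 and 3.30 in BRIP2 replicates 1 and 2, a BRIP2 mean of 3.28 ± 0.030 (SD, n = 2). The summits were 963, 904 and 909 bp upstream of the TSS, within 59 bp of each other. Pileups were 134 fragments (112 to 159) in BRIP1 replicate 2, against 99 (80.5 to 121) and 79 (62.5 to 98.5) in BRIP2 replicates 1 and 2.

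A farther *AS1* site had a fold of 2.75 at 2377 bp upstream in BRIP1 replicate 2, with 115 fragments (94.9 to 138), and of 2.60 at 2407 bp in BRIP2 replicate 2, with 62 fragments (47.5 to 79.5). The nearest summit of BRIP1 replicate 1 was 9454 bp past the 3′ end, so neither *AS1* site was found in that library. Its peak list was the shortest. With lists of equal length *AS1* had a summit in 3 libraries, as with all peaks, and the cause of the absence was not tested.

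*AS2* (chr1:24398143-24400989, plus strand), whose protein acts with AS1, had a fold of 2.14 in BRIP1 replicate 1, at 969 bp upstream and with 70 fragments (54.6 to 88.4), and of 2.48 in BRIP2 replicate 1, at 1145 bp upstream and with 75 fragments (59.0 to 94.0). The nearest summits of BRIP1 replicate 2 and BRIP2 replicate 2 were 9519 and 9546 bp upstream. The site was thus present in 1 replicate of each protein, and the 2 summits stood 176 bp apart.

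**Figure D3:**
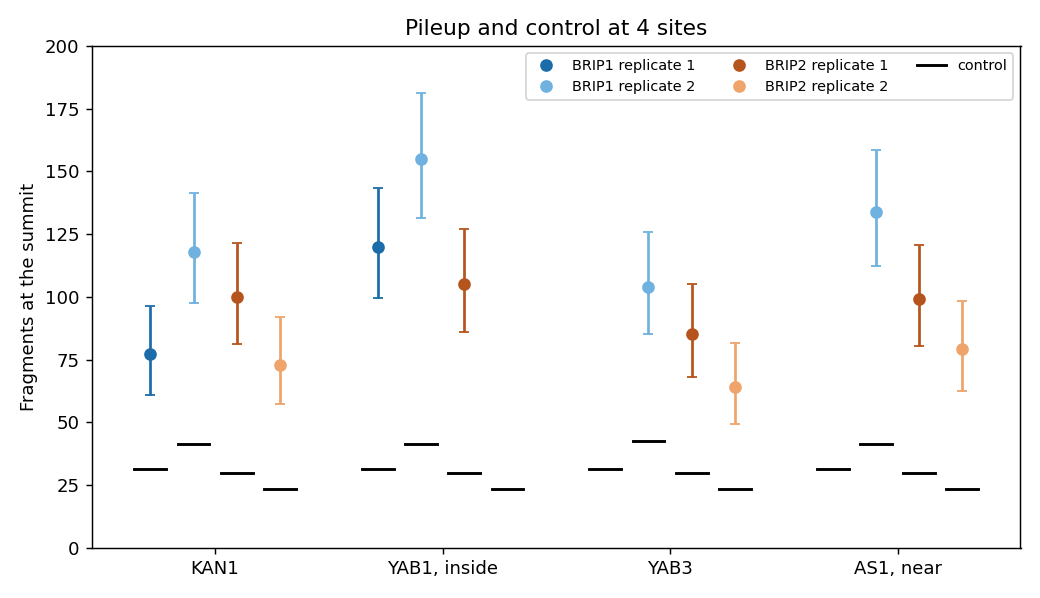
Fragments at the strongest summit (y axis) at the 4 sites found in 3 or more libraries, with exact Poisson 95% intervals as bars, BRIP1 left of BRIP2. Black dashes give the control at the summit, or the background of the library where it had no peak. Every interval shown lay above its control, which follows from the calling of these peaks over the control. BRIP1 replicate 2 had the highest pileup at all 4 sites and the highest control.

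Read against all protein-coding genes, 1 of the 9 genes had a summit in all 4 libraries and 14.9% of all genes did. A summit in at least 1 library was found for 7 of 9, against 39.6% of all genes. In single libraries the counts were 3 of 9 in BRIP1 replicate 1 (16.8% of all genes), 5 in BRIP1 replicate 2 (24.1%), 6 in BRIP2 replicate 1 (36.1%) and 3 in BRIP2 replicate 2 (29.0%). Both BRIP1 replicates held a summit at *KAN1* and *YAB1* (2 of 9, against 15.8% of all genes), and both BRIP2 replicates at *KAN1*, *YAB3* and *AS1* (3 of 9, against 26.7%). The window grows with the gene, from 6249 bp at *AS1* to 9130 bp at *KAN2*, and the shares of all genes were not matched for its length. These counts are a description of 9 genes chosen with earlier results of these data known, and no test of the list was made.

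**Figure D4:**
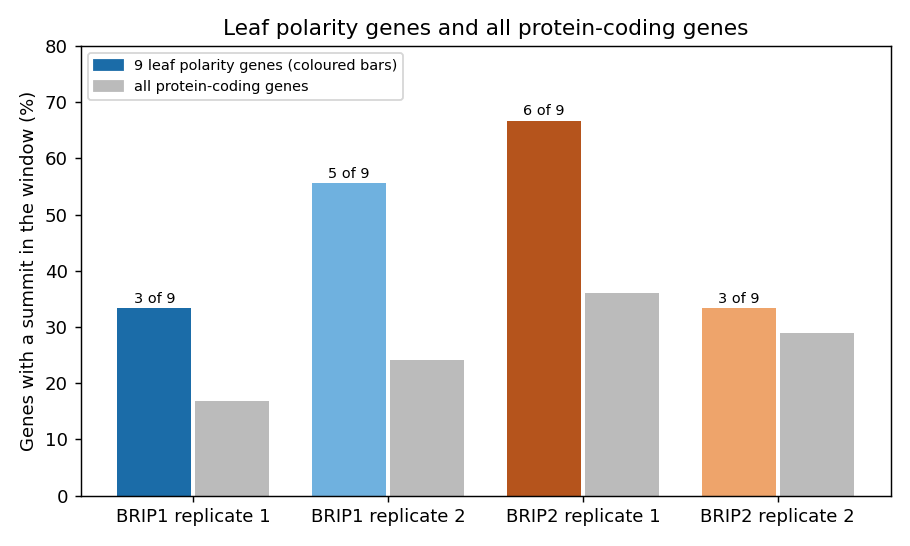
Share of genes with a summit in the window (y axis, percent) in each library, for the 9 leaf polarity genes (coloured bars, with their count) and all 27444 protein-coding genes (grey bars). The share of the 9 genes was 33.3, 55.6, 66.7 and 33.3% in the order of the axis, where 16.8, 24.1, 36.1 and 29.0% of all genes had a summit.

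The same window was applied to 34 other genes of the leaf polarity network. Of these, 9 had a summit in all 4 libraries, 11 in 1 to 3 and 14 in none. Among the 23 protein-coding ones, 7 had a summit in all 4 libraries (14.9% of all protein-coding genes), and among the 9 *MIR165* and *MIR166* genes, 1 did (9.51% of 326 microRNA genes). This list was chosen with earlier results of these data known, and its shares were not matched for gene length. No test of it was made.

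By role, a summit in all 4 libraries was found for 1 of 5 HD-ZIP III genes, which set adaxial identity, 2 of 3 abaxial auxin response factors, 2 of 5 genes of the *TAS3* trans-acting siRNA pathway, which silences those factors, both WOX genes of the leaf margin, 1 of 3 YABBY co-repressor genes, none of 4 little zipper genes and none of the 3 remaining KANADI and YABBY genes (*ATS*, *CRC* and *INO*, which act in ovules and flowers).

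*PHB*, an HD-ZIP III gene whose product and the KANADI proteins act against each other, averaged a fold of 4.33 ± 0.42 for BRIP1, against 4.46 ± 0.17 for BRIP2 (SD over 2 libraries each, as for all folds that follow), with summits 852 to 906 bp upstream. Every *PHB* value was higher than all 24 folds at the 9 genes. *ARF2* averaged 4.17 ± 0.15 for BRIP1 and 4.84 ± 0.25 for BRIP2, and *ETT* (*ARF3*), whose product works with KANADI proteins, 2.89 ± 0.19 for BRIP1 and 3.48 ± 0.81 for BRIP2. *TAS3A*, the siRNA precursor that targets *ETT*, averaged 3.84 ± 0.19 for BRIP1 and 4.38 ± 0.59 for BRIP2, and *AGO7*, the Argonaute of this pathway, 2.12 ± 0.12 for BRIP1 and 2.47 ± 0.24 for BRIP2.

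*MIR166A*, a source of the miRNA that cleaves HD-ZIP III transcripts, averaged 2.88 ± 0.11 for BRIP1 and 3.16 ± 0.14 for BRIP2, with summits 204 to 255 bp upstream. The margin genes *WOX1* and *PRS* (*WOX3*) averaged 3.15 ± 0.31 and 3.01 ± 0.17 for BRIP1, against 2.94 ± 0.077 and 2.28 ± 0.018 for BRIP2. *LUG*, a co-repressor partner of YABBY proteins, averaged 2.80 ± 0.092 for BRIP1 and 2.54 ± 0.27 for BRIP2. The BRIP1 mean was thus below the BRIP2 mean at 6 of these 9 genes and above it at *WOX1*, *PRS* and *LUG*, beside 86.1% of the 2982 shared regions with a lower BRIP1 mean on the log2 scale and a median log2 difference of -0.22 over them. After centring on library medians 47.8% of the shared regions had a lower BRIP1 mean. The differences at these polarity genes were not tested gene by gene. For *ARF2*, *TAS3A*, *AGO7*, *WOX1* and *LUG* the strongest summit was not at the same place in all 4 libraries.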

How the data were processed

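The authors called peaks per library. Sample titles gave the groups and replicate numbers. Their tools, per the submitters' processing notes, were Bowtie, deepTools and MACS2 2.1.1, on TAIR10. Each peak of the deposited lists has a position, a summit, a fold (the ratio of ChIP signal to local control), and p- and q-values as −log10, with q of at least 2.04.

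Peaks on the 5 nuclear chromosomes were assigned to genes of the RefSeq TAIR10.1 annotation. Coordinates count from 1. In MACS2, 1 is added to pileup and to control before fold is taken, and p is a Poisson tail, so both could be solved for. At least 99.9% of pileups were whole within 0.05. Overlapping peaks (1 bp or more) formed regions. A library with several peaks in a region or window gave its highest fold. Log2 fold was fitted with limma 3.58.1 (R 4.3.3) and other steps used Python 3.11.15 with scipy 1.17.1. The peak assignment and the fit were tested on simulated data.

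The 9 genes and the list of 34 were chosen with earlier results of these data known. Named were the 9 genes, any other gene whose TSS was nearest to one of their summits, and the listed polarity genes with a summit in all 4 libraries. AT5G02555, AT4G03525, AT2G45180, *SSL3*, *ATS*, *CRC* and *INO* were named after their values were seen. Alternatives were stricter peaks (−log10 q of 10, fold of 3, equal lists), other gene windows, another overlap, median centring, pileup over background, a replicate block and each library left out.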

Additional observations from a re-analysis of the deposited data

How the results depend on the processing

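*KAN1* was the 1 gene with a summit in all 4 libraries also with lists of equal length. The same held with summits from 1000 bp upstream to the 3′ end or within 2000 bp of the TSS. It also held when a summit in the window counted only for the gene with the nearest TSS. Under a minimum −log10 q of 10 the count was 0, and under a minimum fold of 3 it was 0 as well (8.55 and 3.97% of all protein-coding genes, against 14.9% with all peaks), since *KAN1* itself fell below either limit in a BRIP1 library. It was 2 (*KAN1* and *YAB1*) when any base of a peak in the window sufficed, where the *YAB1* peak of BRIP2 replicate 2 was the one past the 3′ end (16.5% of all genes). With each library left out the count ran from 1 to 3: *YAB3* and *AS1* joined without BRIP1 replicate 1, where 20.5% of all genes were counted, and *YAB1* joined without BRIP2 replicate 2, where 15.5% were. At a minimum fold of 3, 3 of the 34 other polarity genes were counted in all 4 libraries (3.97% of all genes), and 3 of the 9 genes in at least 1 (13.8% of all genes, against 39.6% with all peaks).

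The 721 regions called between BRIP1 and BRIP2 became 33 after centring on library medians and 368 under the minimum −log10 q of 10, and between 208 and 525 with a library left out, 208 without BRIP1 replicate 1 and 236 without BRIP2 replicate 1. With the replicate number as a block the count was 512 (5 higher and 507 lower in BRIP1), and the *KAN1* adjusted p was 0.165. The titles number the biological replicates but do not say that a number was shared between the proteins. The deviations of BRIP1 replicate 1 and BRIP2 replicate 1 had a correlation of 0.0083 over 2982 regions, so these libraries did not deviate together from region to region. A correlation over regions cannot show a shift common to all regions. The *KAN1* difference stayed between -0.40 and -0.05 and its adjusted p between 0.0960 and 0.875 in the 7 alternatives that held the region. With 50% reciprocal overlap and under the minimum −log10 q of 10 *KAN1* had no shared region. The exact p was 0.333 with pileup over background and 1 after centring. Causes were not tested.

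Binding below a fold of 1.59 to 1.73, by library, was not detectable at background, and the causes of the absent peaks were not tested. The counting intervals of the pileups, which ran from 57 to 155 fragments, overlapped between some libraries and not between others. Pileups also depend on depth, and lists differ in length from 3637 to 7877 peaks.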
